A study of Homo sapiens with 8 samples.

Results

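Plasminogen activation and the tissue factor pathway were followed through 9 genes, SERPINB2, SERPINE2, PLAU, PLAUR, PLAT, F3, TFPI, TFPI2 and THBD, in RNA-seq of the human line AC16. The genes were taken by symbol, with earlier results of these data known, and are 9 of the 19479 genes listed. AC16 is a dividing line that came from the fusion of cardiomyocytes of the adult ventricle with a transformed fibroblast line. The 8 libraries form 4 groups of 2. In the group called 25 to 50 mM, cells kept at 25 mM glucose were given a further 25 mM for 24 h, and the 25 mM group stayed at 25 mM. In the group called 5 to 50 mM, cells kept at 5 mM glucose were given a further 45 mM for 24 h, and the 5 mM group stayed at 5 mM. All cells had been at their starting glucose for at least 3 passages, all are of 1 line, and the groups used here carry no genetic change and no other agent in the labels. The series describes its replicates as technical, so p-values measure the spread between these libraries only.

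Plasmin, which dissolves fibrin and cuts matrix proteins, is made from plasminogen by urokinase (PLAU) and tissue-type plasminogen activator (PLAT). Urokinase works at the cell surface while bound to its receptor (PLAUR), and serpins such as PAI-2 (SERPINB2) and protease nexin-1 (SERPINE2) inactivate the activators. Tissue factor (F3) is the membrane receptor that starts coagulation by binding factor VIIa. TFPI blocks the tissue factor and factor VIIa complex, its relative TFPI2 inhibits plasmin and other matrix-cleaving proteases, and thrombomodulin (THBD) turns thrombin towards activation of protein C.

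Library totals ran from 21538898 to 27372851 reads, recovered as whole reads from the deposited RPKM values (read counts relative to gene length and library total), so 3 reads on 1 kb were worth 0.110 to 0.139 RPKM. Of 12 cardiomyocyte markers, 3 were at 0 in all 8 libraries and 1 averaged at least 1 RPKM, whereas 10 of 10 fibroblast markers did. By these markers the cardiomyocyte label was not borne out at the RNA level.

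The start regions of 7 of the 9 genes were matched in the RefSeq table of promoters (build GRCh38.p14, 250 bases before to 50 after each start site, 9 windows of 300 bases). The AP-1 motif TGANTCA, searched on both strands, occurred in 4 of the 9 windows, 1 each of F3, PLAUR, TFPI2 and SERPINB2, against 7.71% of 35116 promoters of the same length. In F3 it occurred at 223 to 217 and at 210 to 204 bases before the start site, in PLAUR at 186 to 180, in SERPINB2 at 102 to 96 and in TFPI2 at 87 to 81. These 4 windows are printed 5′ to 3′ on the gene's strand because they share the motif, which is in capitals. They lie at chr1:94541710-94542009 (F3, minus strand), chr19:43670120-43670419 (PLAUR, minus), chr7:93890704-93891003 (TFPI2, minus) and chr18:63887455-63887754 (SERPINB2, plus).
F3: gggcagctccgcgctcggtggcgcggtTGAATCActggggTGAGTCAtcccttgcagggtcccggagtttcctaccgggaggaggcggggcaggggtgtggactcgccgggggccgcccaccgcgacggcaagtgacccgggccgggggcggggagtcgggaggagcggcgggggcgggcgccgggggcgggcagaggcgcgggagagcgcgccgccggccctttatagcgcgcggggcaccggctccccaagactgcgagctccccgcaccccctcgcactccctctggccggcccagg
PLAUR: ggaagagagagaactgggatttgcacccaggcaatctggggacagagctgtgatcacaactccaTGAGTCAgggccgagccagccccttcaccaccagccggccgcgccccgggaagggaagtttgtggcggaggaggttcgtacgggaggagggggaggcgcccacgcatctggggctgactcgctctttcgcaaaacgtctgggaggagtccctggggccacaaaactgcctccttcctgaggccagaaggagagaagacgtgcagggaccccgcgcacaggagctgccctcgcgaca
TFPI2: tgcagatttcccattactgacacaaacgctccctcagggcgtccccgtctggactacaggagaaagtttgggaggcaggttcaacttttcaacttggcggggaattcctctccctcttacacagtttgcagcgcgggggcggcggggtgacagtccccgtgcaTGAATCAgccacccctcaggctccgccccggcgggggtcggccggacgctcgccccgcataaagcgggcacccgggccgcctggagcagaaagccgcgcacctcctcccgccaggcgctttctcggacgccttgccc
SERPINB2: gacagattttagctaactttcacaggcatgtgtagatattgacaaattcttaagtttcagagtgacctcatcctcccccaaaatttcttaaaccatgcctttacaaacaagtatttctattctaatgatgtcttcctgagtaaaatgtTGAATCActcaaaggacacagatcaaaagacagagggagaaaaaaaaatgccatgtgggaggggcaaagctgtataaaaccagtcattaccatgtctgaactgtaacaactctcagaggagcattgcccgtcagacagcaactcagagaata
PLAU is shown as the gene whose RNA differed most between the maintenance conditions. It had no AP-1 match in either of its 2 windows, and bases outside them were not searched. A link between motifs and RNA levels was not tested. Its window at chr10:73910882-73911181 (plus strand) is printed with its 3 GC boxes, GGGCGG, in capitals.
PLAU: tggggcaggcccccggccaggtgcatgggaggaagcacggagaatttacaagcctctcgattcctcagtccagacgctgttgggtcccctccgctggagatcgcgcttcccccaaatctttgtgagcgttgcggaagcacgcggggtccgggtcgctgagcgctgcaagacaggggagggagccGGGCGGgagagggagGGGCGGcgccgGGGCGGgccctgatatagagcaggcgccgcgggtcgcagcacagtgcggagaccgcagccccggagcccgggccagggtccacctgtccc
The GC box was found in 5 of the 9 windows, of 4 genes (45.0% of all promoters). The TATA box TATAAA was found in 2 windows, on the gene's strand in SERPINB2 and on the opposite strand in F3 (11.5% of all promoters). The E-box CACGTG was found in 1 window, of SERPINE2 (7.26%), and the TEAD motif GGAATG in none (14.0%). The NF-kB motif (GGG and CC with 5 bases between them) was found in 7 of the 9, of 6 genes (58.7%), some of its matches overlapping GC boxes. A match describes the letters of a window and is not a measured binding site.

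Most of the 9 genes had less RNA in cells kept at 25 mM glucose than in cells kept at 5 mM. Of the 8 genes that passed the filter (at least 1 RPKM in at least 2 libraries), 7 were lower and 1, TFPI, was higher at 25 mM than at 5 mM, by limma on log2(RPKM + 1) with p adjusted by Benjamini-Hochberg for all 11941 tested genes and a threshold of 0.05. In this comparison 39.1% of all tested genes were called, 22.1% as lower and 17% as higher. The median log2 change of the 8 genes was -1.29, beside -0.004 for all tested genes. Since the genes were chosen with earlier results of these data known, counts and medians set beside those of all genes are description only. The same 7 genes were lower and TFPI higher at 25 to 50 mM than at 5 to 50 mM, a comparison of 4 other libraries with the spread estimated over all 8, where 41.4% of tested genes were called, 23.3% as lower and 18.1% as higher. The median of the 8 genes was -0.97 there, beside -0.02 for all tested genes. The 5 and 25 mM cultures were kept apart, so maintenance glucose cannot be told apart from the culture, and fewer cells of a type cannot be told apart from less RNA per cell.

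**Figure D1:**
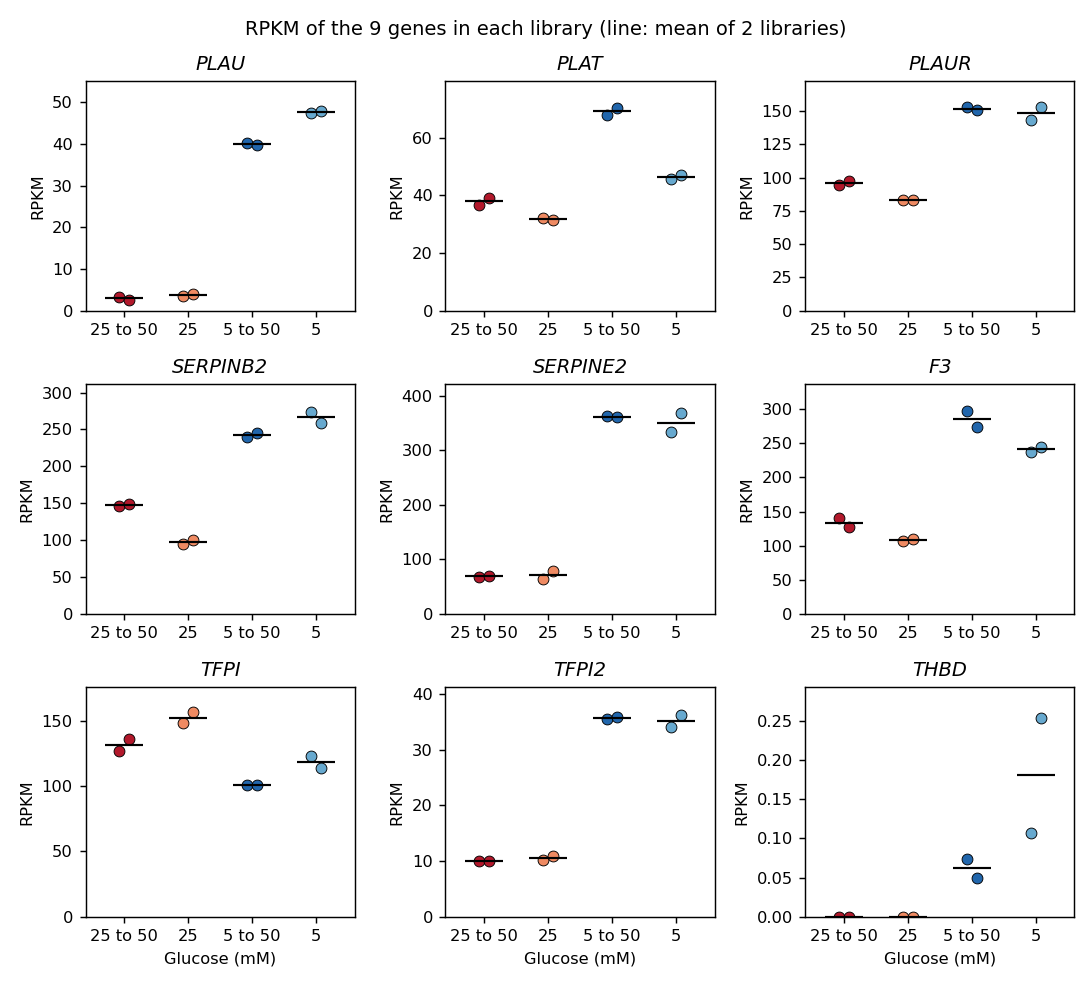
RPKM of each of the 9 genes (vertical axes, each from 0) in the 2 libraries of each glucose group (horizontal axis, mM); points are libraries and lines are group means. For 7 genes the libraries of both 25 mM groups lie below those of both 5 mM groups, TFPI lies the other way, and THBD has no read in the 4 libraries kept at 25 mM.

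The urokinase gene PLAU (Entrez 5328, chr10:73908832-73917494) showed the widest difference. PLAU had 3.33 and 2.56 RPKM at 25 to 50 mM and 3.61 and 3.87 RPKM at 25 mM, against 40.3 and 39.8 RPKM at 5 to 50 mM and 47.4 and 47.8 RPKM at 5 mM. The 4 libraries kept at 25 mM were all far below the 4 kept at 5 mM, and no 2 groups overlapped. PLAU was 10.3-fold lower at 25 mM than at 5 mM (log2 -3.36, SE 0.10, limma adjusted p = 8.63e-07), the 11th largest fall of all tested genes. At 25 to 50 mM it was 10.5-fold lower than at 5 to 50 mM (log2 -3.39, limma adjusted p = 7.95e-07). Both folds are on the log2(RPKM + 1) scale, which understates the difference in RPKM for PLAU. Its mean was 3.74 RPKM at 25 mM against 47.6 at 5 mM, and 2.95 at 25 to 50 mM against 40.1 at 5 to 50 mM. PLAU exons overlap those of C10orf55 on the opposite strand over 916 bases, 269 of them coding bases of PLAU, and strand-specific counting is not given in the sources used here. C10orf55 itself had 0 and 1 reads at 25 to 50 mM and 1 and 1 reads at 25 mM, against 8 and 10 reads at 5 to 50 mM and 14 and 19 reads at 5 mM, while PLAU had 85 to 1742 reads per library.

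PLAT, the tissue-type activator (Entrez 5327), differed less than PLAU. PLAT had 36.8 and 39.2 RPKM at 25 to 50 mM and 32.1 and 31.6 RPKM at 25 mM, against 67.9 and 70.6 RPKM at 5 to 50 mM and 45.9 and 47.2 RPKM at 5 mM. No 2 of its groups overlapped, and 5 to 50 mM was the highest. It was 1.45-fold lower at 25 mM than at 5 mM (log2 -0.53, SE 0.05, limma adjusted p = 0.000238) and 1.80-fold lower at 25 to 50 mM than at 5 to 50 mM (log2 -0.85, limma adjusted p = 2.15e-05).

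The urokinase receptor gene PLAUR (Entrez 5329, chr19:43646095-43670169) was lower as well. PLAUR had 94.2 and 97.7 RPKM at 25 to 50 mM and 83.6 and 82.9 RPKM at 25 mM, against 153 and 151 RPKM at 5 to 50 mM and 144 and 153 RPKM at 5 mM. The libraries at 5 to 50 mM and 5 mM overlapped each other and lay above all 4 kept at 25 mM. PLAUR was 1.77-fold lower at 25 mM than at 5 mM (log2 -0.83, SE 0.05, limma adjusted p = 1.68e-05) and 1.58-fold lower at 25 to 50 mM than at 5 to 50 mM (log2 -0.66, limma adjusted p = 4.19e-05).

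Both inhibitor genes were lower at 25 mM. SERPINB2, encoding PAI-2 (Entrez 5055, chr18:63887705-63903888), had 146 and 149 RPKM at 25 to 50 mM and 94.6 and 100.2 RPKM at 25 mM, against 239 and 245 RPKM at 5 to 50 mM and 274 and 259 RPKM at 5 mM. All 4 groups were apart, with 25 mM lowest and 5 mM highest. SERPINB2 was 2.72-fold lower at 25 mM than at 5 mM (log2 -1.44, SE 0.05, limma adjusted p = 1.65e-06) and 1.64-fold lower at 25 to 50 mM than at 5 to 50 mM (log2 -0.71, limma adjusted p = 3.19e-05). It shares 547 coding bases with SERPINB10 on the same strand, which had 0 to 3 reads per library, against 3150 to 8833 reads for SERPINB2.

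SERPINE2, encoding protease nexin-1, which inhibits thrombin as well as the activators (Entrez 5270, chr2:223975045-224039286), had 67 and 69.8 RPKM at 25 to 50 mM and 63.1 and 79.2 RPKM at 25 mM, against 363 and 361 RPKM at 5 to 50 mM and 333 and 368 RPKM at 5 mM. Within each starting glucose the libraries of its groups overlapped, and between starting glucoses they did not. SERPINE2 was 4.89-fold lower at 25 mM than at 5 mM (log2 -2.29, SE 0.10, limma adjusted p = 5.01e-06) and 5.23-fold lower at 25 to 50 mM than at 5 to 50 mM (log2 -2.39, limma adjusted p = 3.28e-06). Both activators, the receptor and both inhibitors thus had less RNA in cells kept at 25 mM.

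Tissue factor RNA was also lower. F3 (Entrez 2152, chr1:94529173-94541759) had 140.3 and 127 RPKM at 25 to 50 mM and 107 and 109.6 RPKM at 25 mM, against 297 and 274 RPKM at 5 to 50 mM and 238 and 245 RPKM at 5 mM. No groups overlapped, and within each starting glucose the group raised to 50 mM was the higher one. F3 was 2.21-fold lower at 25 mM than at 5 mM (log2 -1.15, SE 0.06, limma adjusted p = 1.31e-05) and 2.13-fold lower at 25 to 50 mM than at 5 to 50 mM (log2 -1.09, limma adjusted p = 1.24e-05).

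TFPI, the inhibitor of the tissue factor complex (Entrez 7035, chr2:187464230-187554435), went the other way. TFPI had 127 and 136 RPKM at 25 to 50 mM and 148 and 157 RPKM at 25 mM, against 101 and 101 RPKM at 5 to 50 mM and 123 and 114 RPKM at 5 mM. Its 4 groups did not overlap, with 25 mM highest and 5 to 50 mM lowest, though the lowest library at 25 to 50 mM was close to the highest at 5 mM. It was 1.29-fold higher at 25 mM than at 5 mM (log2 0.36, SE 0.06, limma adjusted p = 0.00217) and 1.30-fold higher at 25 to 50 mM than at 5 to 50 mM (log2 0.38, limma adjusted p = 0.0017).

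TFPI2 (Entrez 7980, chr7:93885396-93890753) did not follow TFPI. TFPI2 had 10.1 and 10.0 RPKM at 25 to 50 mM and 10.3 and 10.9 RPKM at 25 mM, against 35.5 and 35.8 RPKM at 5 to 50 mM and 34.1 and 36.2 RPKM at 5 mM. The 4 libraries kept at 25 mM lay within a narrow range, well below the 4 kept at 5 mM. TFPI2 was 3.12-fold lower at 25 mM than at 5 mM (log2 -1.64, SE 0.06, limma adjusted p = 2.73e-06) and 3.32-fold lower at 25 to 50 mM than at 5 to 50 mM (log2 -1.73, limma adjusted p = 1.92e-06).

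THBD, encoding thrombomodulin (Entrez 7056, chr20:23045633-23049672), was nearly absent and was not tested. It had 0 and 0 reads at 25 to 50 mM and 0 and 0 reads at 25 mM, against 3 and 2 reads at 5 to 50 mM and 4 and 12 reads at 5 mM. These are 0.0744 and 0.0498 RPKM at 5 to 50 mM and 0.107 and 0.254 RPKM at 5 mM, where 3 reads of this gene are worth 0.0634 to 0.0806 RPKM. With 3 reads per library as the limit that a count of 0 allows, the limit at 25 mM averaged 0.0645 RPKM. The observed mean of 0.181 RPKM at 5 mM was 2.80-fold above that limit. The limit covers counting error at 25 mM only, and the 5 mM mean was taken as exact. The library with 12 reads sets most of that mean, so 2.80 is not a lower bound on the difference.

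**Figure D2:**
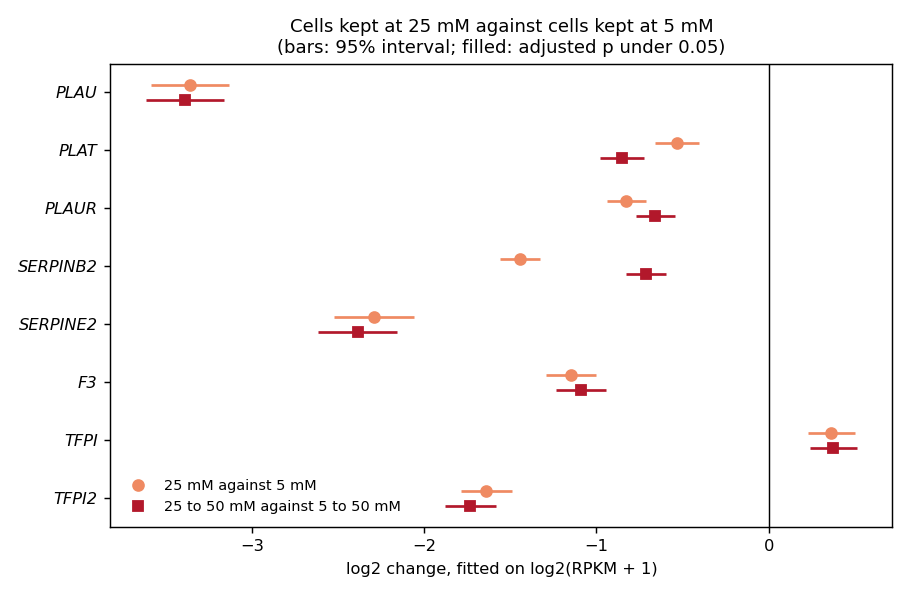
Log2 change (horizontal axis) of the 8 tested genes for 25 mM against 5 mM (circles) and 25 to 50 mM against 5 to 50 mM (squares), with 95% intervals as bars and filled symbols for an adjusted p under 0.05. PLAU is lowest in both comparisons at -3.36 and -3.39, and TFPI alone lies right of 0; the symbols of SERPINB2 (-1.44 and -0.71) and PLAT (-0.53 and -0.85) lie furthest apart.

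Other measures moved with the maintenance comparison. Of 12 histone genes listed as a sign of RNA quality, 9 were tested and 8 were lower at 25 mM than at 5 mM (22.1% of all tested genes). The median log2 change of the 9 was -2.10. At 25 to 50 mM, 8 of the 9 were lower than at 5 to 50 mM (23.3% of all tested genes), with a median of -1.93. The summed level of the 12, led by HIST1H2BK, was 68.1 to 68.5 RPKM at 25 to 50 mM and 51.1 to 54.9 RPKM at 25 mM, against 456 to 468 RPKM at 5 to 50 mM and 297 to 368 RPKM at 5 mM. Of those too low for a test, HIST1H4C averaged 0.66 RPKM at 25 mM and 0.21 RPKM at 5 mM. HIST1H1B averaged 0.44 and 0.34 RPKM, so these were not lower at 25 mM. Summed monocyte and macrophage markers (10 genes) were 86.9 to 87.9 RPKM at 25 to 50 mM and 93.3 to 93.4 RPKM at 25 mM, against 218 to 229 RPKM at 5 to 50 mM and 245 to 254 RPKM at 5 mM. Of these 10 genes 2 averaged at least 1 RPKM, nearly all of the sum was the lysosomal gene CD68, and FCGR3A was at 0 in all 8 libraries. Of the 10 fibroblast markers, 6 were higher and 3 lower at 25 mM than at 5 mM (17% and 22.1% of all tested genes). The lower ones were S100A4 (log2 -1.08), FAP (-1.06) and PDGFRA (-0.59). The summed level of the 10, led by COL1A1, was 2975 to 3288 RPKM at 25 to 50 mM and 3068 to 3121 RPKM at 25 mM, against 2597 to 2635 RPKM at 5 to 50 mM and 2323 to 2508 RPKM at 5 mM. Endothelial markers summed to 4.04 to 6.38 RPKM over the 8 libraries, with CDH5 and EMCN at 0 in all. The part of these in the differences of the 9 genes was not tested.

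Few of the genes passed the test over the 24 h rise to 50 mM. From 25 mM, limma called 0 of the 8 tested genes, beside 0.00876% of all 11422 genes tested (1 gene). At an unadjusted p under 0.05, 4 of the 8 were higher and 1 was lower. Of all 11422 genes, 9.25% passed, 320 as higher and 737 as lower. With voom on the recovered reads 1 of the 8 was called, beside 7 of all genes. SERPINB2 had the largest difference, 1.51-fold higher at 25 to 50 mM than at 25 mM (log2 0.59, SE 0.05, limma adjusted p = 0.0864), and every library of the raised group was above both at 25 mM. SERPINB2 passed the threshold in 7 of 15 alternatives, with limma adjusted p over the 15 from 0.00188 (without 25 to 50 mM replicate 2) to 0.976 (without 25 mM replicate 3). The log2 difference was 0.55 to 0.64 in all 15, and the limma adjusted p was 0.768 without 25 mM replicate 1. Of the histone genes listed as a sign of RNA quality, 7 were tested over this rise, with a median log2 difference of 0.34 and 3 higher at an unadjusted p under 0.05, and their part in the result was not tested. F3 had a log2 difference of 0.30 (limma adjusted p = 0.447), PLAT of 0.25 (0.49), PLAUR of 0.20 (0.49), TFPI of -0.21 (0.493) and PLAU of -0.27 (0.554), none of them called.

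From 5 mM, limma called 1 of the 8 tested genes, beside 0.329% of all 11849 genes tested (39 genes; 0.312% were called higher and 0.0169% lower). That gene was PLAT, 1.48-fold higher at 5 to 50 mM than at 5 mM (log2 0.56, SE 0.06, limma adjusted p = 0.0451). The PLAT call was lost when either library of the 5 to 50 mM group was left out (limma adjusted p 0.288 and 0.487), and with no filter, no trend or a replicate block. The 9 histone genes tested had a median log2 difference of 0.42 over this rise, 5 of them higher at an unadjusted p under 0.05 and 0 called by limma after adjustment, and their part in the PLAT difference was not tested. SERPINB2 had a log2 value of -0.14 over this rise (limma adjusted p = 0.483). At an unadjusted p under 0.05, 2 of the 8 were higher and 2 lower, where 10.5% of all genes passed (611 higher and 635 lower). F3 at 0.24 (0.286) and TFPI at -0.23 (0.309) had values of the same sign as from 25 mM, but passed the threshold in neither comparison. SERPINE2 and TFPI2, which differed 4.89-fold and 3.12-fold between 25 and 5 mM, had intervals that included 0 in both rises: for SERPINE2 -0.30 to 0.20 from 25 mM and -0.11 to 0.21 from 5 mM, and for TFPI2 -0.26 to 0.12 and -0.14 to 0.19.

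**Figure D3:**
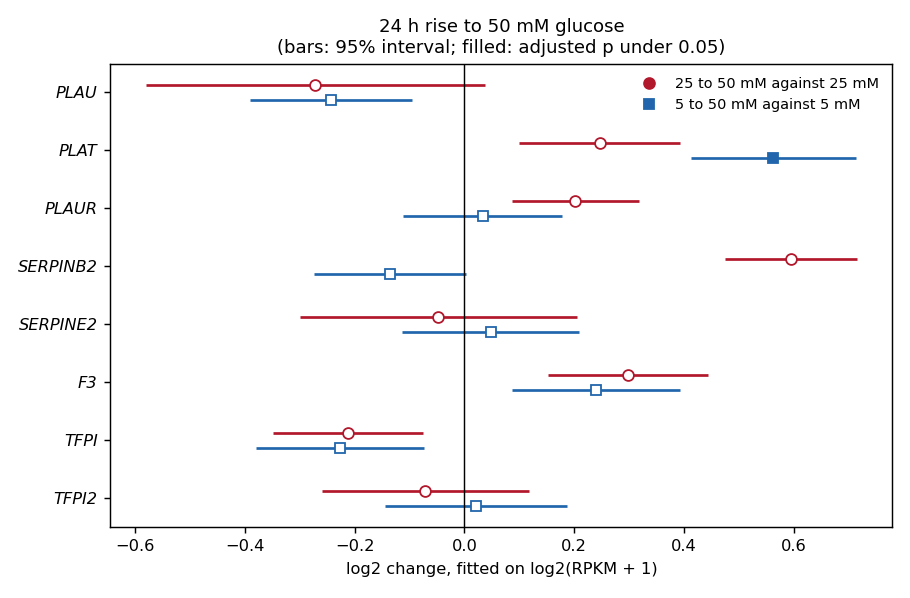
Log2 change (horizontal axis) of the 8 tested genes over the 24 h rise to 50 mM, from 25 mM (circles) and from 5 mM (squares), with 95% intervals as bars and filled symbols for an adjusted p under 0.05. PLAT from 5 mM (0.56) is the only filled symbol, and the intervals of SERPINB2 (0.59 from 25 mM, -0.14 from 5 mM) do not overlap.

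The rises themselves were set against each other as an interaction over all 8 libraries. They added 45 mM from 5 mM and 25 mM from 25 mM, so starting glucose cannot be told apart from the amount added. SERPINB2 was the 1 of the 8 genes called, beside 0.0251% of 11941 genes (3 genes; 0.0167% higher and 0.00837% lower). Its log2 change from 5 mM minus that from 25 mM was -0.73 (95% interval -0.89 to -0.57, SE 0.07, limma adjusted p = 0.0361). The sign and size held without any 1 library (-0.77 to -0.69), but the adjusted p was above the threshold in each of these 8 fits (0.0584 to 0.682), and the call stood in 3 of 18 alternatives. PLAT had a difference of 0.32 (interval 0.14 to 0.50, limma adjusted p = 0.491) and PLAUR of -0.17 (interval -0.33 to -0.01, limma adjusted p = 0.804), neither called. For F3 the interval was -0.26 to 0.15 and for TFPI -0.21 to 0.18, and no difference between the rises was detectable for them.

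Ratios within a library set related genes side by side, since RPKM is per length. Their size depends on the lengths used. The recovered length of PLAUR was 1100 bases where GENCODE gene models give 1312 coding bases, while those of F3, TFPI, PLAU and PLAT matched. A gene's length is the same in every library, so the order of the groups does not rest on it. F3 over TFPI was 1.11 and 0.935 at 25 to 50 mM and 0.724 and 0.699 at 25 mM, against 2.94 and 2.71 at 5 to 50 mM and 1.93 and 2.15 at 5 mM. Tissue factor RNA thus exceeded that of its inhibitor in all 4 libraries kept at 5 mM and was below it in both libraries at 25 mM. PLAU over its receptor PLAUR was 0.0354 and 0.0262 at 25 to 50 mM and 0.0432 and 0.0467 at 25 mM, against 0.264 and 0.264 at 5 to 50 mM and 0.33 and 0.312 at 5 mM. PLAU over PLAT was 0.0907 and 0.0652 at 25 to 50 mM and 0.113 and 0.122 at 25 mM, against 0.593 and 0.565 at 5 to 50 mM and 1.03 and 1.01 at 5 mM. The activators were thus level at 5 mM only, and PLAT was the more abundant one in the other 6 libraries. These ratios restate the values of the genes and were not tested.

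**Figure D4:**
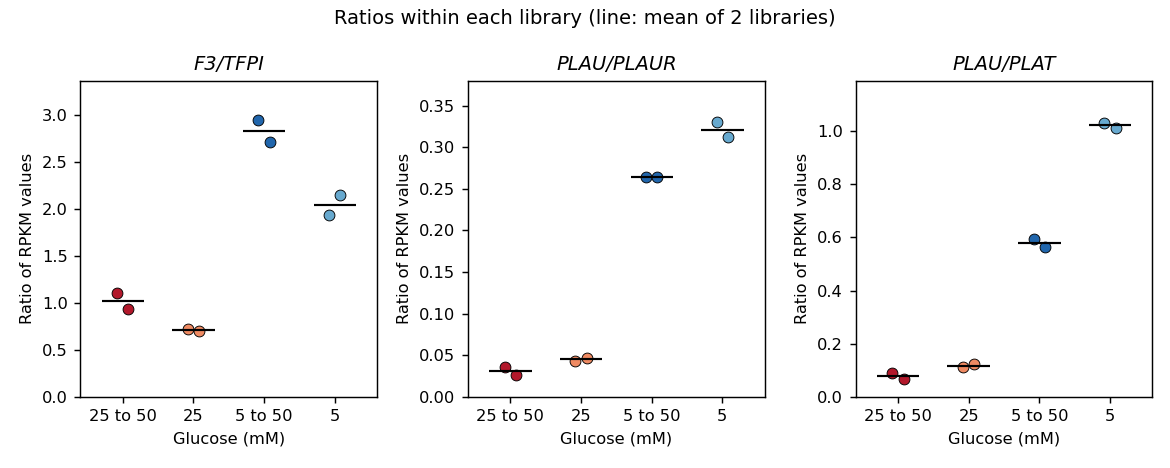
Ratio of RPKM values within each library (vertical axes, each from 0) for F3 over TFPI, PLAU over PLAUR and PLAU over PLAT, by glucose group (horizontal axis, mM); points are libraries and lines are group means. F3 over TFPI is 0.699 to 1.11 in the libraries kept at 25 mM and 1.93 to 2.94 in those kept at 5 mM, and PLAU over PLAT is near 1 at 5 mM only.

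Other genes of the plasminogen system included more lower than higher ones. Of 21 partners, 11 were tested, and 7 were lower and 1 higher at 25 mM than at 5 mM (22.1% and 17% of all tested genes), with a median log2 change of -0.41. At 25 to 50 mM, 7 were lower and 1 higher than at 5 to 50 mM (23.3% and 18.1% of all), with a median of -0.38. The largest falls were those of SERPINI1 (neuroserpin, an inhibitor of PLAT) at -1.12, LRP1 (an uptake receptor for protease and inhibitor complexes) at -0.82 and ITGB3 (a vitronectin receptor subunit) at -0.75. ANXA2, which binds plasminogen and PLAT at the cell surface, was the gene that was higher, with a log2 change of 0.42. S100A10, PLGRKT and ENO1, also tested, were not called at 25 mM against 5 mM. PLG, which encodes plasminogen, had no read in any library.

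Partners in coagulation also included more lower than higher genes. Of 28 listed, 13 were tested, and 8 were lower and 1 higher at 25 mM than at 5 mM (22.1% and 17% of all tested genes), with a median log2 change of -0.39. At 25 to 50 mM, 11 were lower and 1 higher than at 5 to 50 mM (23.3% and 18.1% of all), with a median of -0.38. PROS1, encoding protein S, the cofactor of activated protein C and of TFPI, averaged 3.04 ± 0.22 RPKM at 25 to 50 mM and 3.67 ± 0.372 RPKM at 25 mM, against 13.7 ± 0.106 RPKM at 5 to 50 mM and 14.6 ± 0.319 RPKM at 5 mM (SD, n = 2 each). Its log2 change of -1.75 was the largest of the list. F2RL1, encoding the receptor PAR2 that the tissue factor and factor VIIa complex can cleave, averaged 2.01 ± 0.0471 RPKM at 25 to 50 mM and 2.33 ± 0.19 RPKM at 25 mM, against 7.71 ± 0.202 RPKM at 5 to 50 mM and 6.39 ± 0.593 RPKM at 5 mM (SD, n = 2 each). PROCR, the endothelial protein C receptor, had a log2 change of -0.50 and ANXA5, which covers exposed phosphatidylserine, of -0.47. F7, which encodes the ligand of tissue factor, had no read in any library. By limma, 0 of the 13 were called over the rise from 5 mM and 0 of 11 over that from 25 mM, where 0.329% and 0.00876% of all genes were called, and 1 was lower at an unadjusted p under 0.05 in each. At that unadjusted p, 635 of 11849 genes were lower from 5 mM and 737 of 11422 from 25 mM.

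Clade B, the serpin family of SERPINB2, holds proteins that act largely inside cells. Of 12 other members listed, 5 were tested, and 3 were higher and 1 lower at 25 mM than at 5 mM (17% and 22.1% of all tested genes), with a median log2 change of 0.32. At 25 to 50 mM, 2 were higher and 1 lower than at 5 to 50 mM (18.1% and 23.3% of all), with a median of 0.04. SERPINB7 rose by 0.60, SERPINB6 by 0.37 and SERPINB9 by 0.32 on the log2 scale, while SERPINB8 fell by 0.90, all at 25 mM against 5 mM. At 25 to 50 mM against 5 to 50 mM, the log2 change was 1.02 for SERPINB7, 0.29 for SERPINB6 and -0.90 for SERPINB8, all called. SERPINB9 had a log2 value of 0.04 there (limma adjusted p = 0.774). By limma, 0 of these 5 were called over either rise (0.00876% of all genes from 25 mM and 0.329% from 5 mM), and at an unadjusted p under 0.05, 3 were lower from 25 mM and 1 from 5 mM. Of all genes, 737 of 11422 and 635 of 11849 were lower at that unadjusted p.

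**Figure D5:**
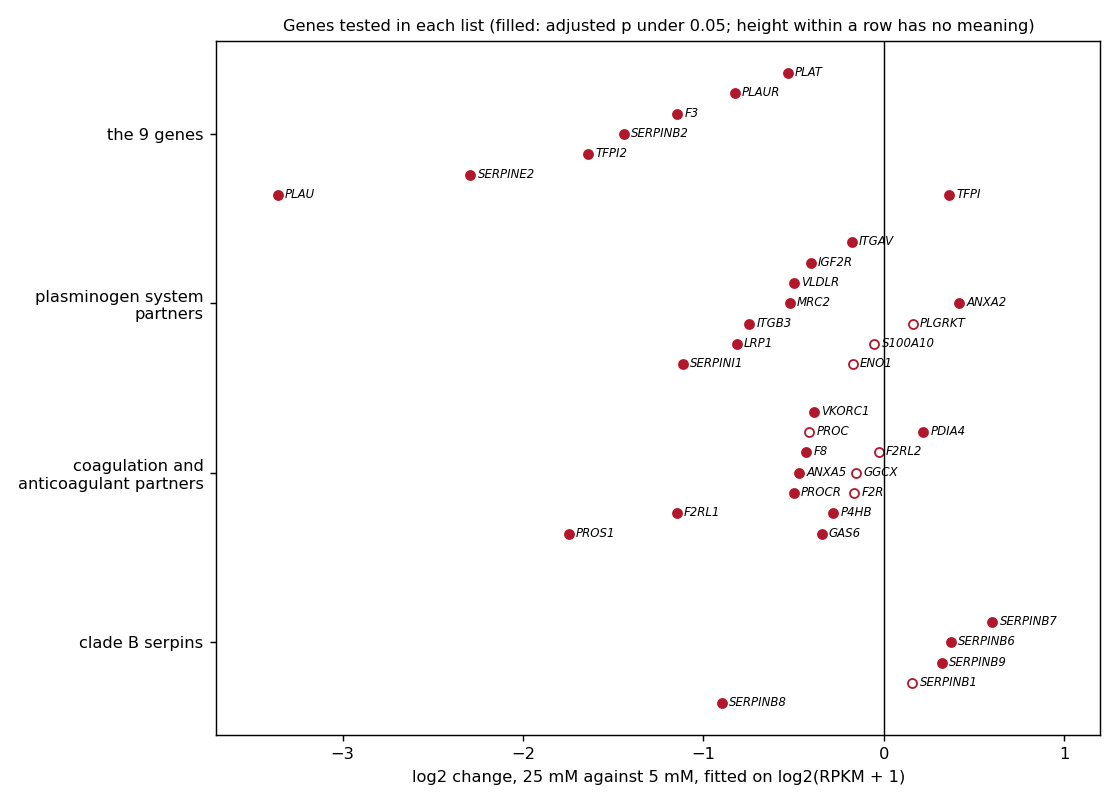
Log2 change for 25 mM against 5 mM (horizontal axis) of each tested gene in the 4 lists, filled where the adjusted p is under 0.05; height within a row carries no value. PLAU (-3.36) and SERPINE2 (-2.29) lie furthest left, PROS1 (-1.75) is the lowest of the partners, and SERPINB7 (0.60) is the highest gene shown.

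Among 9611 genes averaging 5 RPKM or more, those whose log2 levels over the 8 libraries were most like PLAU by Pearson r were MGST3, DPP4 and L1CAM (r = 0.999 each). DPP4, a cell-surface peptidase, averaged 2.69 RPKM at 25 to 50 mM and 3.43 RPKM at 25 mM, against 35.1 RPKM at 5 to 50 mM and 40.5 RPKM at 5 mM. The genes most like SERPINE2 were CTSS (r = 0.999), TFPI2 (r = 0.999) and FMNL2 (r = 0.998), and those most like TFPI2 were IFI30, TIMP1 and SERPINE2 (r = 0.999 each). SERPINE2 and TFPI2 thus named each other. IFI30, a lysosomal thiol reductase, averaged 22.3 RPKM at 25 to 50 mM and 24.3 RPKM at 25 mM, against 124 RPKM at 5 to 50 mM and 127 RPKM at 5 mM. These r values are over 8 libraries that fall into 2 clusters by starting glucose and share their scaling, so they describe that split and carry no p.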

How the data were processed

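Gene expression was measured by total RNA sequencing (TRIzol extraction, per the labels' protocols) in 8 AC16 libraries, 2 in each of 4 groups. STAR and the hg38 build are named in the submitters' processing notes, and the STAR version, counting tool and strand setting are not given in the sources used here. The authors deposited 2 tables of RPKM, 1 for each starting glucose, per the file headers with 4 library columns each. Whole reads came out for 99.98% of genes above 0 (tolerance 0.01), with 1 gene length valid in both tables, so both share a scale. Recovered lengths were multiples of 3 for 83.7% of 13484 genes, which describes coding lengths.

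Values were tested as log2(RPKM + 1) with limma 3.58.1 in R 4.3.3 (mean-variance trend, two-sided), for genes reaching 1 RPKM in 2 or more fitted libraries, with Benjamini-Hochberg adjusted p over all tested genes and a threshold of 0.05. Folds are on that scale, which understates changes of low genes. Each rise was fitted on its own 4 libraries, and the other 3 comparisons on all 8. The rises and the maintenance comparisons share libraries. Of the partner lists, at most 4 genes per comparison are given with values, called ones first by size, with 2 exceptions. ANXA2 was given as the 1 plasminogen partner called higher, though the called falls of MRC2 and VLDLR were larger. SERPINB9 was given again, uncalled, at 25 to 50 mM against 5 to 50 mM. CD68, FCGR3A, CDH5, EMCN, PLG, F7, C10orf55, HIST1H2BK, HIST1H4C and HIST1H1B were named after their values were seen. Of the plasminogen list, 1 gene is not reported here and is left out of its counts, so that list is not described over the rises. The genes and lists were chosen with earlier results of these data known. Alternatives changed the pseudocount, filter, scaling, trend, robustness, joint fit, voom on recovered reads, replicate block and each library in turn. Libraries of a group differed by more than counting error. Coordinates are RefSeq GRCh38.p14.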

Additional observations from a re-analysis of the deposited data

Results flagged for a closer look

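The 24 h rise to 50 mM differed between the starting glucose levels for SERPINB2 by a test of the difference itself. The rises added 45 mM from 5 mM and 25 mM from 25 mM, so starting level cannot be told apart from amount added. The log2 change from 5 mM minus that from 25 mM was -0.73 (limma adjusted p = 0.0361, n = 2 libraries per group). Both libraries at 25 to 50 mM (146 and 149 RPKM) were above both at 25 mM (94.6 and 100.2 RPKM), whereas both at 5 to 50 mM (239 and 245 RPKM) were below both at 5 mM (274 and 259 RPKM). The call is not stable across settings, as given under the processing.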

How the results depend on the processing

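For 25 mM against 5 mM and for 25 to 50 mM against 5 to 50 mM, the 8 tested genes kept direction and call under every alternative run (144 of 144 each). All genes called were 4671 and 4946, and without 1 library 3024 to 4769 and 3177 to 5733; with a replicate block they were 3456 and 3420. For 25 to 50 mM against 25 mM, 0 of the 8 became 1, SERPINB2, under median centring, quantile normalization, robust estimation, the joint fit and voom (0 to 3 without 1 library). All genes called, 1, became 4, 2, 3, 4 and 7 in these, 0 with no filter, no trend or the replicate block, and 0 to 777 without 1 library, with 777 without 25 to 50 mM replicate 2; PLAT (adjusted p = 0.0437) and F3 (0.048) were then called by limma. For 5 to 50 mM against 5 mM, the 1 of 8, PLAT, became 0 with no filter, no trend or the replicate block (limma adjusted p 0.124, 0.108 and 0.161), and the count was 0 to 2 without 1 library; TFPI was called without 5 mM replicate 3 (log2 -0.28, limma adjusted p = 0.0263). All genes called there, 39, became 0 with no filter, no trend or the block, 60 with median centring, 61 with quantile normalization, 130 in the joint fit and 0 to 805 without 1 library. For the difference between the rises, SERPINB2 was lost (1 to 0) at pseudocounts of 0.1 and 0.5, without a filter, at a mean of 5 RPKM or more, without trend, in voom and the block (limma adjusted p 0.113, 0.0936, 0.132, 0.0652, 0.229, 0.0744 and 0.471) and without each library (0 to 0). All genes called, 3, became 0, 0, 1, 0, 1, 0 and 0 in the same order, and 0 to 6 without 1 library. Signs turned only for values that passed in neither setting. SERPINE2 from 25 mM was 0.0012 with median centring and -0.21 to 0.11 without 1 library, and TFPI2 was 0.015 with quantile normalization. From 5 mM, without 1 library, SERPINE2 ran from -0.024 to 0.12, PLAUR from -0.014 to 0.081 and TFPI2 from -0.020 to 0.063. For the difference between the rises, PLAU was -0.012 with median centring and -0.076 with quantile normalization, and without 1 library PLAU ran from -0.11 to 0.17, SERPINE2 from -0.066 to 0.26, F3 from -0.13 to 0.013 and TFPI from -0.069 to 0.041. The cause of these changes was not tested. The labels do not say that replicate numbers pair libraries, so the block is a shared number only. The rises, which share 1 number, were blocked over all 8 libraries. Same-numbered deviations correlated at 0.30 for 25 and 5 mM and at -0.23 to -0.76 for other pairs. With 2 libraries per group the deviations mirror each other, so the sign rests on which library carries which number. These values cannot decide whether the numbers pair libraries. Where a group was left with 1 library, it was assumed to vary like the others. THBD, at 0 to 12 reads per library, is the 1 of the 9 genes whose level was too low for a test.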
